A study of Mus musculus with 9 samples.

Results

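The miRNAs described here are 8 mature miRNAs of the imprinted Dlk1-Dio3 region of mouse chromosome 12, namely miR-127-3p (MIMAT0000139), miR-134-5p (MIMAT0000146), miR-136-5p (MIMAT0000148), miR-379-5p (MIMAT0000743), miR-382-5p (MIMAT0000747), miR-409-3p (MIMAT0001090), miR-434-3p (MIMAT0001422) and miR-411-5p (MIMAT0004747). They were picked out by these miRBase identifiers and are 8 of the 876 mature miRNAs that had a count in at least 1 library. Their counts were followed through small RNA libraries of serum, the cell-free fluid left after blood has clotted, from healthy mice of strain 129/SVj, males and females pooled and aged 2 to 9 months.

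The RNA of serum pools A, B and C was split over 3 treatments, which gave 9 libraries in 3 groups of 3. Control libraries were made from RNA that was not depleted. For the beads libraries, biotinylated DNA probes against the 5′ fragments of glutamine, glycine, valine and histidine tRNA, which arise by a cut in the anticodon loop, were captured with the bound RNA on magnetic streptavidin beads. For the RNase H libraries, the same kind of probe was followed by RNase H, which cuts RNA paired with DNA, and then by DNase I. The comparison of each depleted group with control addresses whether the depletion procedure leaves the relative levels of miRNAs as they were. Heating, slow cooling and ethanol precipitation are described for the depleted RNA only. Removal of the tRNA fragments cannot be told apart from these steps. The extraction protocol describes aliquots of serum pooled from 3 mice, so the spread between pools, on which all p-values rest, may be technical only.

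In the Dlk1-Dio3 region, the copy of a gene that is active depends on the parent it came from. The protein-coding genes Dlk1, Rtl1 and Dio3 are active from the paternal chromosome, and the noncoding RNAs Meg3, Rian and Mirg, together with a long series of miRNAs, from the maternal one. These miRNAs are best known from the embryo, the placenta and the brain. A miRNA lowers the output of the messenger RNAs it pairs with, mainly through its seed, bases 2 to 8 from its 5′ end.

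All 8 members were matched by name to the RefSeq miRNA table (GRCm38.p6), and all 8 lie on the plus strand of chromosome 12 between Dlk1 (chr12:109452823-109463336) and Dio3 (chr12:110279068-110281097). The table holds 58 miRNA hairpins and 114 mature miRNAs between these genes, 54 of the hairpins on the plus strand. The members fall into 2 stretches. Mir127, Mir434 and Mir136 lie within 2.54 kb of each other, in an exon of Rtl1 and on the strand opposite to that gene, and miRNAs in this antisense position are known to direct cleavage of the Rtl1 messenger RNA. After a gap of 113.67 kb, Mir379, Mir411, Mir382, Mir134 and Mir409 lie within 34.2 kb. Mir379 and Mir411 do not lie wholly inside any annotated gene other than miRNA genes (GENCODE vM21). Partial overlaps with genes and overlaps with other miRNA genes were not searched. Mir382 lies partly in an exon of the noncoding RNA gene Mirg, Mir134 in an exon of Mirg, and Mir409 in an intron of it.

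The mature sequences are shown because they are what the identifiers count and because they show that no pair of members has the same seed. They are printed 5′ to 3′ in their order along the chromosome, with the seed in capitals.
miR-127-3p, chr12:109592888-109592909: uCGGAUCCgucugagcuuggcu
miR-434-3p, chr12:109594565-109594586: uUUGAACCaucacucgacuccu
miR-136-5p, chr12:109595331-109595352: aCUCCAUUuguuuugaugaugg
miR-379-5p, chr12:109709065-109709085: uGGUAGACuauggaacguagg
miR-411-5p, chr12:109710190-109710210: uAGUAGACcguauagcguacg
miR-382-5p, chr12:109733781-109733802: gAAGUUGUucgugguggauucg
miR-134-5p, chr12:109734145-109734166: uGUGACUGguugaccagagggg
miR-409-3p, chr12:109743204-109743225: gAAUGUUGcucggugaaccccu

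Each of these sequences occurs once in the mature RefSeq table, so no other mature entry has the same sequence. Matches elsewhere in the genome or within longer sequences were not searched. The most alike pair is miR-379-5p and miR-411-5p, identical at 14 of 21 positions and at 6 of 7 seed positions. In the whole table, miR-379-5p shares its seed with miR-1193-5p and miR-411-5p shares its seed with miR-7229-5p, and the seeds of the other members are carried by no other entry. GC content ranges from 36.4% in miR-136-5p to 59.1% in miR-127-3p and miR-134-5p. The hairpins of miR-434-3p and miR-134-5p, the members that passed the test after depletion with beads, are shown with the counted arm in capitals. The arm of miR-434-3p is the 3′ arm of its hairpin and that of miR-134-5p is the 5′ arm.
Mir434, chr12:109594506-109594599: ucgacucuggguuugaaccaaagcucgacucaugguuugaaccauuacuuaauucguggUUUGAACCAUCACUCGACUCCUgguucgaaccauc
Mir134, chr12:109734139-109734209: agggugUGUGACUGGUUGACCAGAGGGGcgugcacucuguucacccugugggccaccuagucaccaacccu

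The groups differed strongly in depth. The control libraries held 205185 to 330676 miRNA counts, the beads libraries 1822088 to 1995956 and the RNase H libraries only 1199 to 2040. Levels are given as counts per 1000000 miRNA counts of the same library (CPM), a measure of composition that does not show the amount of a miRNA in the serum. All members are 21 or 22 bases long and each read stands for 1 mature miRNA, so no scaling per length was needed. The level that a count of 0 in a single library still allows, set at 3 counts, was 9.07 to 14.6 CPM in control, 1.50 to 1.65 CPM in beads and 1471 to 2502 CPM in RNase H libraries. These limits and all counting intervals leave out errors other than counting, as PCR copies could not be told from separate molecules.

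In undepleted serum, 5 of the 8 members were counted in every library, and miR-434-3p far exceeded the others. miR-434-3p had 141, 239 and 203 counts in control pools A, B and C, which are 687, 723 and 816 CPM. Its mean of 742 ± 66.7 CPM (SD, n = 3) placed it at rank 72 of the 572 miRNAs with a count in control libraries. It made up 82.8% ± 1.67 (SD, n = 3) of the counts of all 8 members.

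miR-411-5p, miR-409-3p and miR-127-3p followed at similar levels. The mean control level of miR-411-5p was 47.2 ± 4.49 CPM (SD, n = 3), that of miR-409-3p was 45.8 ± 4.82 CPM (SD, n = 3), and that of miR-127-3p was 45.3 ± 13.96 CPM (SD, n = 3). These 3 neighbours in the order of levels overlapped across libraries and did not differ beyond their spread. miR-134-5p, which is known in neurons as a regulator of dendritic spines, was the lowest member counted, with a mean of 15.5 ± 10.4 CPM (SD, n = 3). Its highest control library, 24.4 CPM, lay below the lowest control library of miR-127-3p, 29.2 CPM. Both are control pool A, with 5 counts for miR-134-5p and 6 counts for miR-127-3p. Their Wilson 95% confidence intervals, 10.4 to 57.0 and 13.4 to 63.8 CPM, overlapped, so that library does not separate these members.

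**Figure D1:**
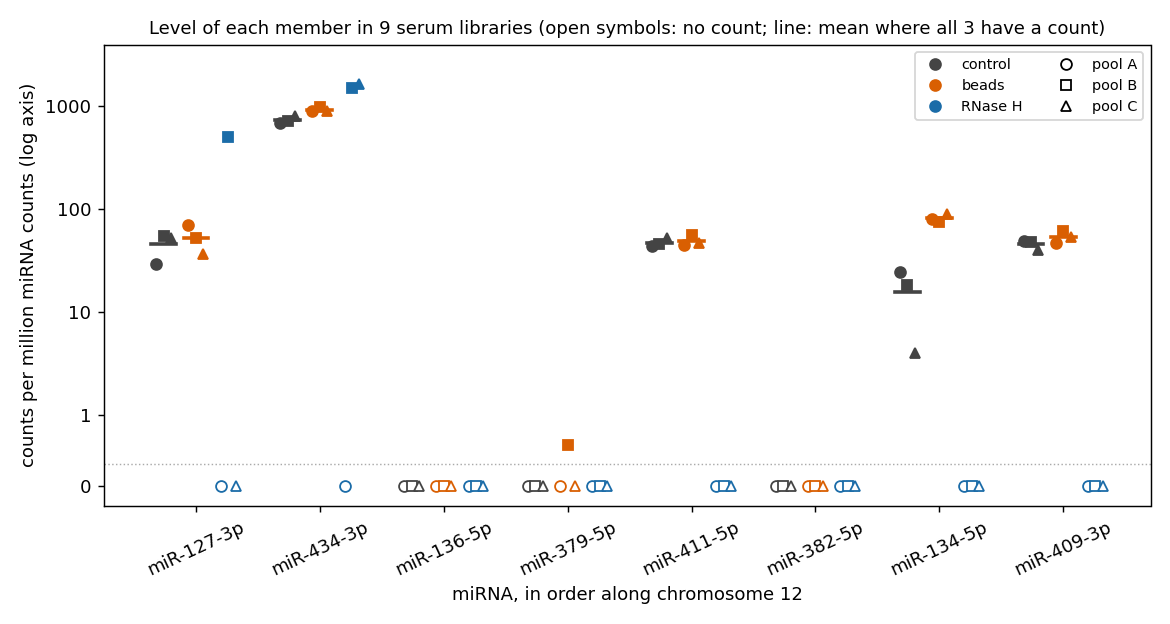
Level of each member in CPM (log axis) in the 9 libraries, with members in their order along chromosome 12, symbols for pools, colours for treatments and a line at the mean where all 3 libraries had a count. miR-434-3p sits near 742 CPM in control and 930 CPM in beads libraries, miR-134-5p is the member whose beads symbols lie farthest above its control symbols, and open symbols at the bottom mark libraries without a count.

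miR-136-5p, miR-379-5p and miR-382-5p had no count in any control library. Over the 3 control libraries together, 0 counts allow a level of up to 3.82 CPM, beside means of 15.5 to 742 CPM for the other 5 members. The beads libraries were deeper, with 7.32 times the mean miRNA count of control, and there 0 counts over the group allow up to 0.522 CPM. miR-136-5p and miR-382-5p still had no count, and miR-379-5p had a single count, in beads pool B (0.501 CPM, Wilson 95% confidence interval 0.0884 to 2.84 CPM). miR-136-5p comes from the same stretch as miR-434-3p, its hairpin starting 0.821 kb after that of Mir434. On the minus strand, the hairpin Mir3071 starts 142.495 kb from the start of Dlk1, beside 142.504 kb for Mir136. Whether reads of miR-136-5p were assigned to Mir3071 by position was not tested. miR-382-5p and miR-134-5p come from neighbouring hairpins in Mirg, and of these the former was not detectable at this depth and the latter was counted in all 6 libraries. The number of members with a count was 5 in each control library and 5, 6 and 5 in beads pools A, B and C. At an equal number of miRNA counts, that of control pool A, the expected number was 4.94 ± 0.100 (SD, n = 3) in control and 5.03 ± 0.0595 (SD, n = 3) in beads libraries.

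**Figure D2:**
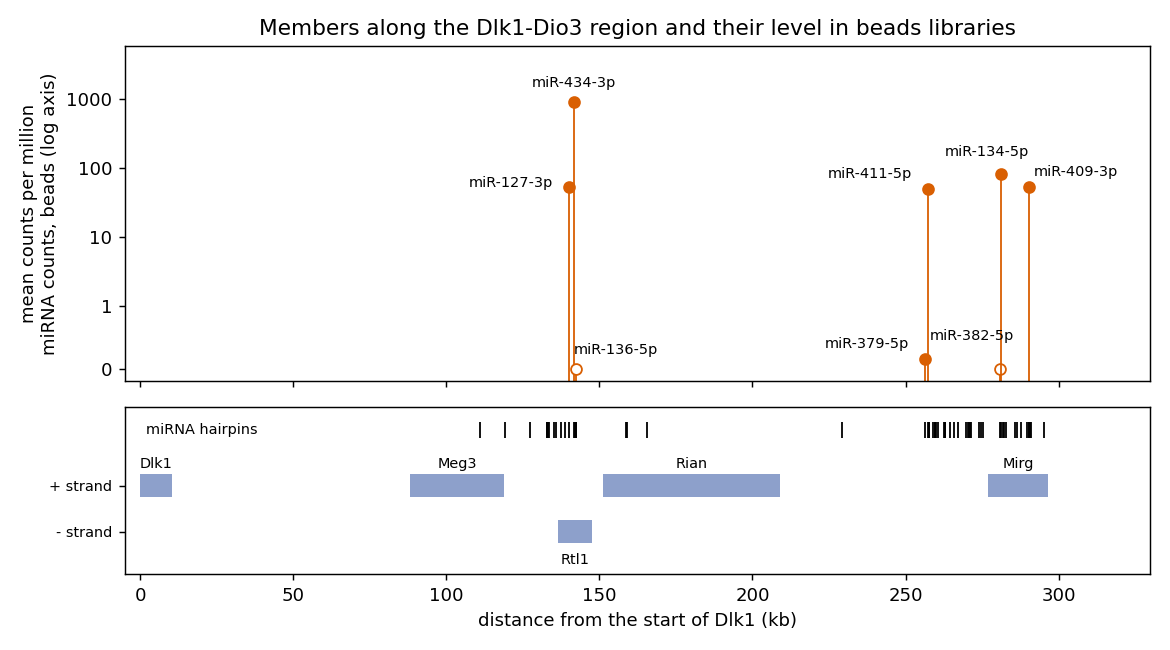
Position of the 8 members in kilobases from the start of Dlk1 (horizontal axis), with their mean level in the 3 beads libraries in CPM above (log axis, open symbols for no count) and the genes and miRNA hairpins of the region below. Dio3 lies beyond the right edge. Members with levels of 49.5 CPM or more and members with a mean of 0.167 CPM or less stand side by side in both stretches.

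After depletion with beads, the relative level of miR-134-5p rose most among the members and that of miR-434-3p rose slightly, while the other 3 tested members did not pass the test. The raw counts of all 5 rose with the depth of the libraries, by a factor of 7.70 for miR-411-5p to 39.0 for miR-134-5p, beside the factor of 7.32 for all miRNA counts. The edgeR test on miRNA counts covered 307 miRNAs, of which 16.6% were raised and 10.1% were lowered at an adjusted p under 0.05. Of the 5 members that passed the filter on low counts, 2 were raised and 0 lowered, and 0 were lowered at an unadjusted p under 0.05 or with DESeq2. Of those raised, miR-134-5p passed this filter only through its beads libraries, where it was high. Its call was therefore not independent of the difference. The 3 members without a test were miR-136-5p, miR-379-5p and miR-382-5p. The median log2 fold change of the tested members was 0.24, beside 0.043 over all 307 miRNAs.

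miR-134-5p had 5, 6 and 1 counts in control pools A, B and C and 154, 151 and 163 counts in the beads pools. This corresponds to 24.4, 18.1 and 4.02 CPM in control and to 79.9, 75.7 and 89.5 CPM in beads libraries. Every beads library lay above every control library, which was the case for 22.8% of all tested miRNAs and for 2 of the 5 tested members. The mean rose from 15.5 ± 10.4 to 81.7 ± 7.07 CPM (SD, n = 3 each), a ratio of 5.27, with an edgeR log2 fold change of 2.41 ± 0.35 (SE, adjusted p = 6.35e-11). By log2 fold change miR-134-5p was 14th of the 307 miRNAs tested, and 29 miRNAs were raised more than 2-fold. Neither this p-value nor this rank is independent of the difference, because of the filter on low counts.

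The rise of miR-134-5p rests on few control counts. It passed the filter on low counts only through its beads libraries, where it was high, so that test was not independent of the difference. Without the filter the edgeR log2 fold change was 2.45 (adjusted p = 1.89e-10). Its ratio was 3.28 in pool A (exact 95% counting interval 1.38 to 10.2) and 4.17 in pool B (1.87 to 11.5). In pool C the ratio was 22.2 with an interval of 3.94 to 884, since it rests on 1 control count. Without control pool C the edgeR log2 fold change was 1.98 (adjusted p = 1.04e-05). In the order of members by mean level, miR-134-5p was the lowest of the 5 in control and next to miR-434-3p in beads libraries. There its lowest library, 75.7 CPM, lay above the highest library of any member below it, 69.6 CPM for miR-127-3p. The Wilson 95% confidence intervals of these 2 libraries, 64.5 to 88.7 and 58.7 to 82.4 CPM, overlapped. The share of miR-134-5p in all member counts went from 1.79% ± 1.27 to 7.02% ± 0.906 (SD, n = 3 each).

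miR-434-3p had 1744, 1969 and 1638 counts in beads pools A, B and C, which are 905, 986 and 899 CPM. All 3 lay above the highest control library, 816 CPM. The mean of 930 ± 48.8 CPM (SD, n = 3) was 1.25 times that of control, with an edgeR log2 fold change of 0.33 ± 0.10 (SE, adjusted p = 0.00755). The ratio was 1.32 in pool A (exact 95% counting interval 1.11 to 1.58), 1.36 in pool B (1.19 to 1.57) and 1.101 in pool C (0.951 to 1.28). The call was lost without control pool A (log2 fold change 0.29, edgeR adjusted p = 0.0750) and without control pool B (log2 fold change 0.30, edgeR adjusted p = 0.109), with a fold close to that of all 6 libraries. Its share of the members' counts was 79.6% ± 0.585 (SD, n = 3) in beads libraries.

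miR-127-3p had 6, 18 and 13 counts in control pools A, B and C and 134, 105 and 66 in the beads pools, or 29.2, 54.4 and 52.3 CPM against 69.6, 52.6 and 36.2 CPM. The groups overlapped, and the pools differed in direction. The ratio was 2.38 in pool A (exact 95% counting interval 1.06 to 6.60), 0.966 in pool B (0.583 to 1.69) and 0.693 in pool C (0.379 to 1.37). The edgeR log2 fold change was 0.18 ± 0.28 (SE, adjusted p = 0.714), and it changed sign when control pool A or beads pool A was left out (-0.0072 and -0.060). The ratio of miR-434-3p to its neighbour miR-127-3p was 17.5 ± 5.36 in control and 18.9 ± 5.90 in beads libraries (SD, n = 3 each), a difference smaller than the spread.

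miR-409-3p had 10, 16 and 10 counts in control pools A, B and C and 90, 122 and 98 in the beads pools. Its levels were 48.7, 48.4 and 40.2 CPM in control and 46.7, 61.1 and 53.8 CPM in beads libraries, and the groups overlapped. The mean of 53.9 ± 7.20 CPM (SD, n = 3) gave an edgeR log2 fold change of 0.24 ± 0.28 (SE, adjusted p = 0.619). Ratios within pools ran from 0.959 (exact 95% counting interval 0.498 to 2.07) in pool A to 1.34 (0.697 to 2.88) in pool C. These intervals are those of single pools, and neither shows a direction by itself.

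miR-411-5p had 9, 15 and 13 counts in control pools A, B and C and 87, 112 and 86 in the beads pools. Its levels were 43.9, 45.4 and 52.3 CPM in control and 45.2, 56.1 and 47.2 CPM in beads libraries. The groups overlapped, and the mean of 49.5 ± 5.83 CPM (SD, n = 3) gave an edgeR log2 fold change of 0.08 ± 0.28 (SE, adjusted p = 0.873). The ratio was lowest in pool C (0.903, exact 95% counting interval 0.501 to 1.76) and highest in pool B (1.24, 0.719 to 2.28).

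**Figure D3:**
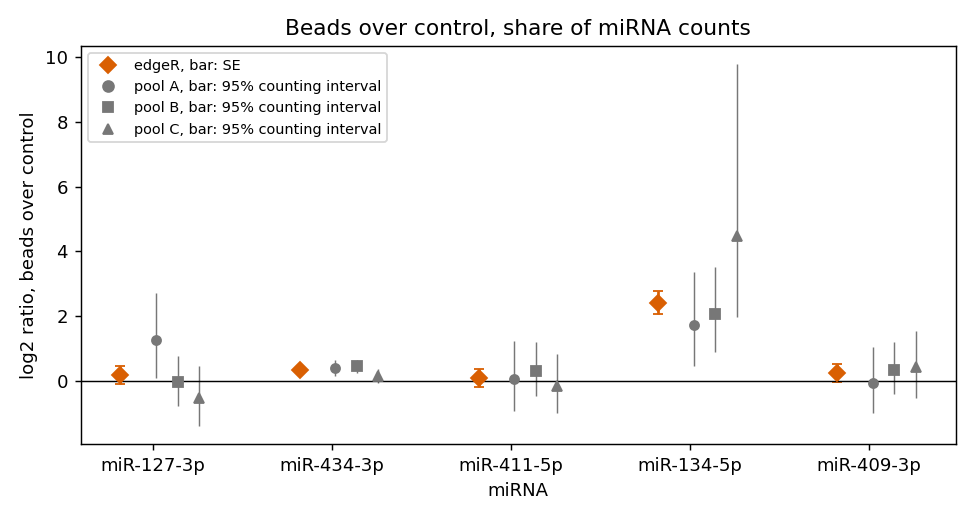
log2 ratio of beads to control levels for the 5 members that could be tested, with the edgeR estimate and its SE (diamonds) and the ratio within each pool with its exact 95% counting interval (grey symbols). The estimate is 2.41 for miR-134-5p and 0.33 for miR-434-3p, and the pool symbols of miR-127-3p lie on both sides of 0.

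Summed over the 8 members, the level was 833, 889 and 965 CPM in control pools A, B and C and 1147, 1232 and 1126 CPM in the beads pools. The beads libraries all lay above the control libraries, with means of 1168 ± 56.6 and 896 ± 66.1 CPM (SD, n = 3 each) and a ratio of 1.30. Within pools the ratio was 1.38, 1.39 and 1.17. Most of the difference in the sum is that of miR-434-3p, and without miR-134-5p the means were 1087 ± 62.7 and 880 ± 76.4 CPM (SD, n = 3 each). By stretch, the 3 members antisense to Rtl1 summed to 787 ± 76.6 CPM in control and 983 ± 52.4 CPM in beads libraries (SD, n = 3 each). The 5 members from Mir379 to Mir409 summed to 108 ± 10.7 and 185 ± 11.7 CPM (SD, n = 3 each). The difference in the latter stretch is mostly that of miR-134-5p.

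In the RNase H libraries the members were almost out of reach of the counts. Of the 8 members, miR-434-3p had 0, 3 and 2 counts in pools A, B and C, miR-127-3p had 1 count in pool B, and no other member had a count. Summed over the members, the counts were 0, 4 and 2. At the mean control level the same libraries would have held 1.83, 1.77 and 1.07 member counts, or 4.67 in all beside the 6 counted. The mean number of miRNA counts in these libraries was 0.00665 times that of control, and even miR-411-5p at its control level would leave 0.0962, 0.0932 and 0.0566 counts in pools A, B and C.

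**Figure D4:**
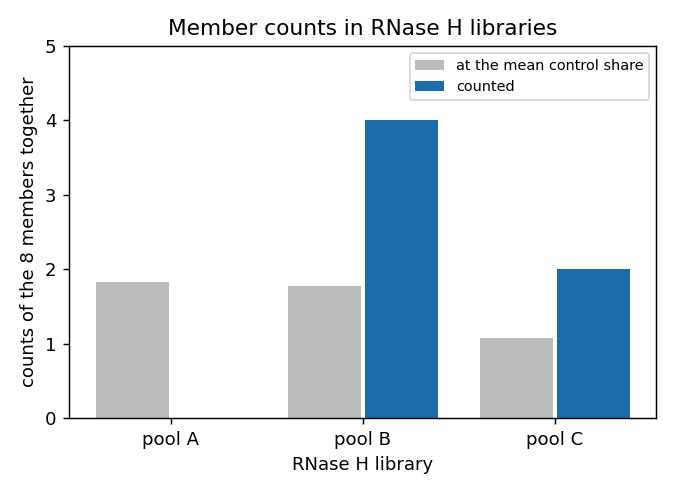
Counts of the 8 members together in each RNase H library (blue) beside the number that the mean control level would give at the same miRNA depth (grey). The counts are 0, 4 and 2 beside 1.83, 1.77 and 1.07.

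The edgeR test of RNase H against control covered 138 miRNAs and called 11.6% of them in either direction. miR-434-3p was the only member that could be tested, with a log2 fold change of 0.25 ± 0.74 (SE, adjusted p = 0.865), and 7 members had no test. Its ratio was 2.10 in pool B (exact 95% counting interval 0.430 to 6.21) and 2.04 in pool C (0.246 to 7.48). In pool A, 0 of 2040 miRNA counts allow a level of up to 1471 CPM, above its control level. The number of members with a count was 0, 2 and 1. Thinned to the miRNA depth of RNase H pool C, the expected number was 0.849 ± 0.784 (SD, n = 3) in RNase H libraries, beside 0.769 ± 0.0327 (SD, n = 3) in control libraries. A loss of a member could not be seen at this depth, nor a gain within these limits. Over the 3 RNase H libraries together, 0 counts allow up to 575 CPM, beside a control level of 47.2 CPM for miR-411-5p.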

How the data were processed

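Small RNA libraries from 3 serum pools (A, B and C) by 3 treatments were analysed, grouped by their labels. The authors trimmed adapters with Cutadapt (1.8.1), filtered reads on quality and length, mapped them to GRCm38 with Bowtie (1.1.2) without mismatches and annotated miRNAs by position with miRBase. The deposited values are raw counts per mature miRNA from 1 read, by miRBase identifier without a name, and an identifier that a library does not list was taken as 0. Reads with an untemplated or modified end are lost by mapping without mismatches. A second deposited table of counts per library (other small RNAs) was used only for the total of annotated counts.

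Members and lists were chosen with earlier results of these data known. Levels are counts per 1000000 miRNA counts (CPM). Fits across all miRNAs used the edgeR package (4.0.16, R 4.3.3; TMM, filterByExpr, quasi-likelihood, Benjamini-Hochberg adjustment over all miRNAs tested, threshold 0.05), with the 2 groups compared in each fit and SE taken as the log2 fold change over the square root of F. The procedure was tested on simulated data. The simulation gave all miRNAs the same spread and planted larger changes than that of miR-434-3p after beads. It does not bear on changes as small as that. Shares have Wilson and ratios exact (Clopper-Pearson) 95% intervals (SciPy 1.17.1). No pair of libraries of a group agreed within sampling noise (chi-square per degree of freedom at least 1.37). Serum pools pair the libraries by their labels. The correlation of deviations of beads and control libraries was 0.16, 0.05 and 0.03 in pools A, B and C over 307 miRNAs, and -0.09, 0.02 and 0.06 for RNase H over 138. The named miRNAs are the 8 members and the 3 tested miRNAs outside them most like their sum over the control and beads libraries. The alternatives were DESeq2 1.42.0, other library sizes, no filter, a joint fit, the pool as a block, leaving out each library, and other limits of detection. Other miRNAs of the region, the opposite arms of the members' hairpins and markers of cell types were planned by name and are not analysed here, since no table used here pairs the identifiers with names.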

Additional observations from a re-analysis of the deposited data

How the results depend on the processing

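Of 151 values recomputed under alternatives, 125 kept their direction and their side of the threshold or, without a test, moved by less than the spread, and counts of calls were taken as kept within 1.5 times. Some of these could hardly fail, as 0 members were called for RNase H under every setting. The summed level for RNase H counted as kept at 0.677 times control with all annotated counts and at 0.931 times without RNase H pool B. It was 1.37 times in the main setting, 2.06 times without RNase H pool A and 1.13 times without RNase H pool C. The SD of its pool ratios was 1.19. miR-134-5p passed in all 12 alternatives of the beads comparison, with log2 fold changes of 1.98 to 2.76 where miRNA counts set the scale, but it passed the filter on low counts through its beads libraries, and 2.45 is the value without that filter. With all annotated counts as library size, the median log2 fold change of all miRNAs moved to 3.37 for beads and to -1.70 for RNase H, because miRNAs took a larger or smaller share of the library. With that scale all 332 miRNAs tested and 5 members were raised after beads (82 miRNAs and 2 members otherwise), the summed level was 13.1 times that of control, 51 miRNAs were called for RNase H (16 otherwise), and miR-434-3p stood at -1.31 for RNase H. With the serum pool as a block, 2 members remained called after beads (miR-434-3p 0.34, edgeR adjusted p = 0.00287) and 91 miRNAs in all, and 12 miRNAs were called for RNase H, and no member's call changed. The joint fit of 9 libraries called 31 miRNAs for RNase H. Leaving out 1 library gave 1 to 2 members called after beads, a log2 fold change of -0.060 to 0.39 for miR-127-3p (-0.060 without beads pool A and -0.0072 without control pool A), and a log2 fold change of -0.023 to 0.15 for miR-411-5p (-0.023 without beads pool B). For RNase H it gave 4 to 14 miRNAs called and -0.17 to 1.00 for miR-434-3p, which fell under the filter without any 1 control library. The cause of these changes was not tested. At 4 or more counts, the mean number of members detected was 4.67 in control (5 otherwise) and 0 in RNase H libraries (1 otherwise). At equal depth it was 4.94 in control at the depth of the comparison with beads and 0.769 at that of RNase H. Depth limits the members in control libraries, where 4 of the 5 counted had 1 to 18 counts, and all members in RNase H libraries. The comparison of other miRNAs of the region was not run.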

Other observations

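Over the 6 control and beads libraries, the tested miRNAs outside the 8 members whose profile was most like that of the members' sum were MIMAT0005859, MIMAT0019136 and MIMAT0014856, which the files do not pair with names. The root mean square difference of their centred log2 CPM from the sum was 0.0713, 0.0797 and 0.0818, beside a median of 0.357 over 302 candidates. They were picked for the smallest differences from the sum, so their place below the median was set by the choice. Of the members, miR-434-3p gives most of this sum, so the likeness is largely to its profile.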
